A study of Gallus gallus with 23 samples.

Results

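MARCO, CD74, CYBB and BTK, genes of macrophages and other leukocytes, were followed in the livers of growing chickens that received corticosterone, triiodothyronine, both hormones or neither. They were chosen by name, as every spot that the array's annotation gives to 1 of these 4 symbols, and they are 4 of the 6428 genes named on the array, with 9 of its 19200 spots. The genes were picked because they differed between the corticosterone and the triiodothyronine birds in these same data, so that comparison is given as a description, with no test. The spots carry 1 probe of MARCO, 1 of CYBB, 2 of BTK and 5 of CD74. No probe sequence was used here, and the build behind the annotation is not given in the sources used here, so no coordinates are given.

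The birds were broiler cockerels of the Ross x Cobb cross, housed 3 to a pen, and liver was taken 6 days after an osmotic pump had been placed under the skin at 29 days of age. The pump held vehicle alone in the control group (VC, 6 birds), corticosterone at 600 micrograms per kg per day in the CS group (6 birds), triiodothyronine at 192 micrograms per kg per day in the T3 group (6 birds), or both agents at those doses in the CS+T3 group (5 birds). The vehicle, 50% DMSO with 50% propylene glycol, was common to all 4 groups. Each bird had 1 array of 2 colours, on which its liver RNA was set against 1 pool of RNA from 6 control birds, and values are log2 ratios of bird to pool, the base and the direction being assumed. If the pool were the numerator, every sign given here would turn.

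Corticosterone is the main glucocorticoid of birds, and triiodothyronine is the active thyroid hormone. The liver holds its own macrophages, the Kupffer cells, which line the sinusoids and clear bacteria, dead cells and particles from the blood. In human and mouse, MARCO is a scavenger receptor on the surface of such macrophages, CD74 is the invariant chain that chaperones MHC class II molecules to the compartment where they load peptide, CYBB is the membrane subunit that passes electrons to oxygen in the phagocyte oxidase, and BTK is a kinase that relays signals from the B cell receptor and is also present in myeloid cells.

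On 6 of the 23 arrays, deposited values sat against the wrong spots, and this touched the 4 genes. Nearly all values of VC replicate 4 (by 4 spots over most blocks), CS+T3 replicate 1 (7 spots), T3 replicate 3 (14 spots) and CS replicate 3 (13 spots) were displaced in block, row and column order, and part of the values of T3 replicate 1 and CS+T3 replicate 2 were. As deposited, the 4 nearly fully displaced arrays correlated with the mean of the others at -0.05 to 0.02. At their best single lag they reached 0.20 to 0.39, while the 17 unmoved arrays stood at 0.23 to 0.57. T3 replicate 1 stood at 0.10 as deposited, with 53.5% of its spots blank, and CS+T3 replicate 2 at 0.44. The displaced values were moved back. Parts that correlated under 0.1 and the blocks where the lag changed were left missing. On the 4 arrays the blanks had not moved with the values. Those of CS replicate 3 correlated with the blanks of the others at 0.82 in place and 0.08 at its lag. A moved value was therefore kept only where neither its old nor its new spot was blank. After these steps 6348 of 10919 values were used on CS replicate 3. The kept parts of T3 replicate 1 correlated at 0.13, 0.34 and 0.15. Its values for MARCO (1.30), CYBB (0.30) and the CD74 spots in block 14, row 1 (-0.63), and block 19 (0.88) come from the part at 0.13. Its value for the CD74 spot in block 47 (0.24) comes from the part at 0.15. For MARCO, whose block is where the lag changed, none of the 4 displaced arrays kept a value, and for BTK only VC replicate 4 did. The second BTK spot, in block 21, was blank on all 23 arrays, so BTK rests on the spot in block 27.

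In the comparison that chose them, all 4 genes stood lower in the CS birds than in the T3 birds, by 1.10 (SE 0.32) for MARCO, 0.85 (SE 0.18) for CD74, 0.66 (SE 0.12) for CYBB and 0.46 (SE 0.14) for BTK on the log2 scale, which are ratios of 2.14, 1.81, 1.58 and 1.38. For CD74, CYBB and BTK, 3 of the 4 genes, no CS bird reached the lowest T3 bird, while the MARCO values of the groups overlapped. Of all 9249 features tested in that comparison, 7.6% passed the threshold of an adjusted p under 0.05, 2.5% higher and 5.1% lower in CS, and 4.82% had groups without overlap, 2.92% with CS below T3. Nothing is read from the members' own count. Without the 6 arrays that held displaced values the differences were -1.01 for MARCO, -0.64 for CD74, -0.55 for CYBB and -0.46 for BTK. That of BTK could not change, since these arrays held no CS or T3 value used for it. For MARCO only the value of T3 replicate 1 dropped out of this comparison. In whole liver, fewer cells of a type and less RNA per cell cannot be told apart.

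**Figure D1:**
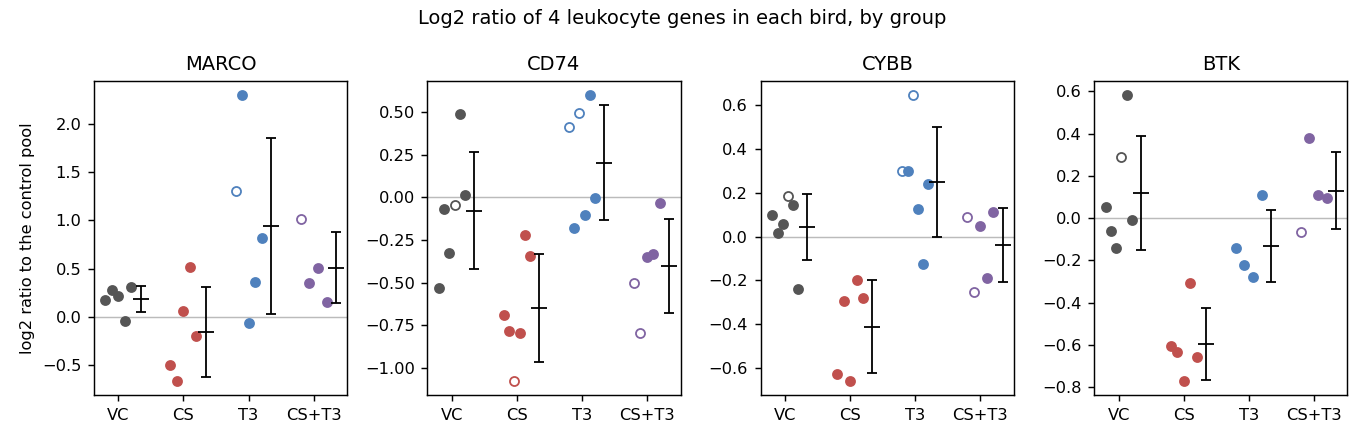
Log2 ratio to the control pool (vertical axis) of MARCO, CD74, CYBB and BTK in each bird, by group. Points are birds, open points come from arrays with displaced values that were moved back, and the bar beside each group is its mean with 1 SD. The CS mean is the lowest in all 4 panels, and MARCO in the T3 birds spreads from -0.06 to 2.30.

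MARCO, the macrophage scavenger receptor, varied more among the T3 birds than the other members did. In the VC birds its log2 ratio was 0.18, 0.28, 0.21, -0.041 and 0.31, a mean of 0.19 ± 0.14 (SD, n = 5). In the T3 birds it was 1.30, 2.30, -0.060, 0.36 and 0.82, a mean of 0.94 ± 0.91 (n = 5). The T3 birds thus ran from below every VC bird to far above all of them, with replicate 2 highest. Over all its values, the array of T3 replicate 1 had an SD of 0.56 and that of replicate 2 of 0.50. T3 replicates 4, 5 and 6 had 0.23, 0.32 and 0.31, and the VC arrays 0.18 to 0.36. CS+T3 replicate 2 (0.51) and CS replicates 2, 4 and 6 (0.50, 0.47 and 0.49) were wide as well. The part of this array spread in the MARCO values was not tested.

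MARCO in the CS birds was -0.50, -0.66, 0.062, 0.52 and -0.20, a mean of -0.16 ± 0.47 (SD, n = 5), and 3 of the 5 lay below every VC and every T3 bird. In the CS+T3 birds it was 1.02, 0.35, 0.51 and 0.15, a mean of 0.51 ± 0.37 (n = 4), with 3 of the 4 above every VC bird. The order of the means was T3, CS+T3, VC and CS, and each neighbouring pair in that order overlapped. The T3 birds stood 0.76 (SE 0.32) above VC, and 0.42 above it when replicate 2 was left out. With quantile normalization this difference was 0.38, and with array weights it was 0.39.

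The MARCO spot lies in block 1. The median log2 ratio of all spots in that block differed in mean between the groups, with overlapping ranges, and was not tested. It was 0.06 ± 0.13 in VC (SD, n = 5), 0.04 ± 0.25 in CS (n = 5), 0.28 ± 0.33 in T3 (n = 5) and 0.28 ± 0.20 in CS+T3 (n = 4). With each block's median taken away on every array, MARCO differed by -0.86 (SE 0.21) between CS and T3. The same step took its difference between CS+T3 and VC from 0.32 to 0.10.

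CD74, the invariant chain, was read from 4 spots with values on 19 to 22 arrays, averaged, and from 1 more spot with few values. The VC birds ran from -0.53 to 0.49 with a median of -0.05, and their mean was -0.08 ± 0.34 (SD, n = 6). The CS birds ran from -1.07 to -0.22 with a median of -0.74 and a mean of -0.65 ± 0.32 (n = 6). The lowest, CS replicate 3, had no value at the spots in blocks 35 and 47, so its mean rests on other spots than most birds' means. All 6 CS birds lay below the VC mean, and 4 of them lay below every VC bird.

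The T3 birds ran from -0.18 to 0.60 for CD74, with a median of 0.20 and a mean of 0.20 ± 0.34 (SD, n = 6). The CS+T3 birds stood at -0.50, -0.80, -0.35, -0.33 and -0.03, a mean of -0.40 ± 0.28 (n = 5), and 4 of the 5 lay below every T3 bird. The means were ordered T3, VC, CS+T3 and CS, and each neighbouring pair overlapped. Averaged over its spots, CD74 was the member whose CS+T3 mean lay nearest to the CS mean, at a difference of 0.25 (SE 0.18). Spot by spot, CS+T3 minus CS was 0.72 (SE 0.29) in block 19 and 0.44 (SE 0.28) in block 47. It was 0.14 (SE 0.14) in block 14, row 1, and -0.38 (SE 0.28) in block 35. The place of CD74 among the members thus holds for the spot mean only.

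The 5 CD74 spots did not give 1 answer. The spot in block 19, row 2, showed the widest separation, with CS values of -1.67, -1.43, -1.61, -2.27, -0.46 and -1.69 (mean -1.52 ± 0.59, SD, n = 6) and T3 values of 0.88, 0.24, -0.22, 1.08 and 0.26 (mean 0.45 ± 0.53, n = 5). Its difference between CS and T3 was -1.97 (SE 0.29), and -1.84 without the 6 arrays. The groups did not overlap at this spot, and CS replicate 5 was the highest of the CS birds. The share of all single spots without overlap in this comparison, which chose the gene, was not counted. The lack of overlap is therefore a description only.

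The spot in block 47, row 9, pointed the same way with a smaller difference of -0.72 (SE 0.24). Its CS values were -0.66, -0.56, -0.71, -0.12 and -0.06 (mean -0.42 ± 0.31, SD, n = 5). All lay below the T3 values of 0.24, 0.0018, 0.041, 1.05 and 0.14 (mean 0.29 ± 0.43, n = 5). This too is a description, since the share of all single spots without overlap was not counted. The spot in block 14, row 1, differed by -0.20 (SE 0.14) with overlapping groups, at -0.46 ± 0.25 in CS (n = 6) and -0.27 ± 0.34 in T3 (n = 5), and ran from -0.29 to -0.070 with 1 array left out. The spot in block 35, row 9, differed by 0.05 (SE 0.25), at 0.12 ± 0.43 in CS (n = 5) and 0.06 ± 0.56 in T3 (n = 6). Its sign turned with 1 array, from -0.12 without CS replicate 6 to 0.27 without T3 replicate 1.

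The last CD74 spot, in block 14, row 12, had 4 values in all: -0.24 and -0.004 in 2 VC birds, 1.15 in T3 replicate 3 and -0.08 in 1 CS+T3 bird. It gave no group comparison, yet its value enters the gene mean of T3 replicate 3 beside that of 1 other spot. With each spot first centred on its own mean over the arrays, CD74 differed by -0.77 (SE 0.16) between CS and T3, against -0.85 without that step.

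Across birds, the spots in blocks 19 and 47 moved together, with a Pearson correlation of 0.82 over 19 arrays. The spot in block 14, row 1, correlated with these at 0.48 (22 arrays) and 0.63 (19 arrays). The spot in block 35 stood apart, at 0.19 with block 19 (19 arrays), 0.23 with block 47 (17 arrays) and -0.06 with block 14, row 1 (19 arrays). These correlations are descriptions, since the spots share arrays, RNA and the group differences. Which of the probes matches the CD74 transcript was not tested, for want of their sequences.

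**Figure D2:**
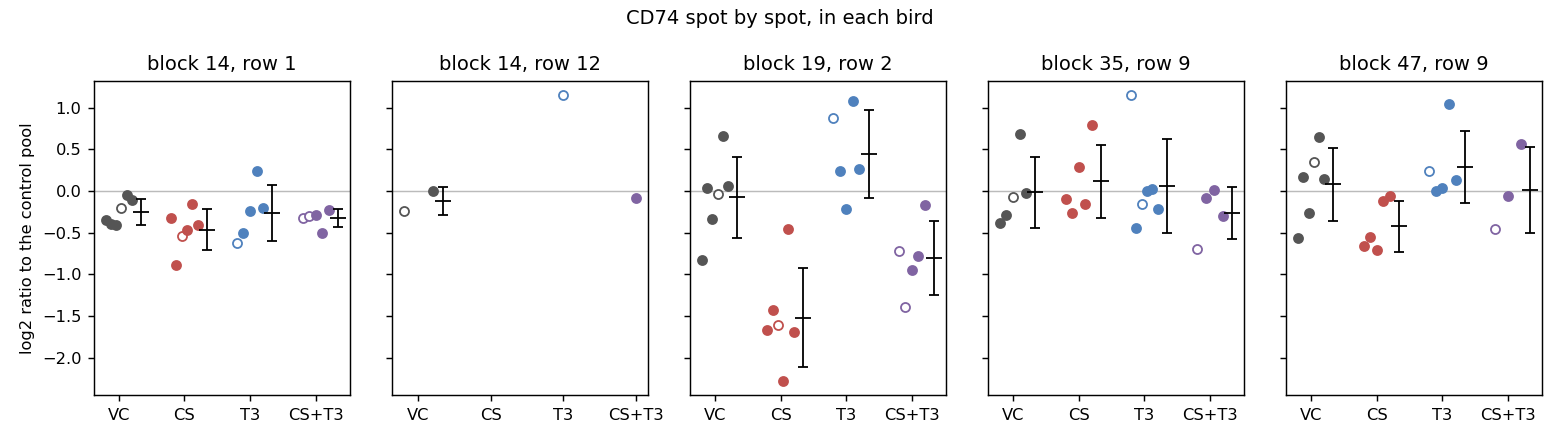
Log2 ratio to the control pool (vertical axis) of each of the 5 CD74 spots in each bird, by group, with group mean and 1 SD beside the points. Open points come from arrays with displaced values that were moved back. The CS birds sit lowest at block 19, row 2 (mean -1.52), and are not set apart at block 35, row 9 (mean 0.12).

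CYBB, the catalytic membrane subunit of the phagocyte oxidase, had the least spread among control birds after MARCO. The VC birds ran from -0.24 to 0.18 with a median of 0.08, a mean of 0.04 ± 0.15 (SD, n = 6). The CS birds stood at -0.63, -0.29, -0.66, -0.20 and -0.28, a mean of -0.41 ± 0.21 (n = 5). All 5 lay below the VC mean and 4 of them below every VC bird, VC replicate 6 being the low control.

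The T3 birds ran from -0.12 to 0.65 for CYBB, with a median of 0.27 and a mean of 0.25 ± 0.25 (SD, n = 6). The CS+T3 birds stood at 0.09, -0.25, 0.05, -0.19 and 0.11, a mean of -0.04 ± 0.17 (n = 5), with 4 of the 5 above every CS bird. The means were ordered T3, VC, CS+T3 and CS, with overlap between each pair of neighbours.

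BTK, the kinase of B cell receptor signalling, had another pattern. The VC birds ran from -0.14 to 0.58 with a median of 0.02, a mean of 0.12 ± 0.27 (SD, n = 6), and the CS birds stood at -0.61, -0.63, -0.77, -0.31 and -0.66, a mean of -0.59 ± 0.17 (n = 5). Every CS bird lay below every VC bird, at a difference of -0.71 (SE 0.13). BTK was the only member, 1 of 4, without overlap between these groups, and 4.08% of all features passed in that comparison, 0.984% higher and 3.09% lower in CS. The groups did not overlap for 4.44% of all features, and CS lay below VC in 2.97%.

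The T3 birds stood at -0.14, -0.22, -0.28 and 0.11 for BTK, a mean of -0.13 ± 0.17 (SD, n = 4). Of these, 3 of the 4 lay below every VC bird, but T3 replicate 2 only just, at -0.1439 against -0.1411 in VC replicate 3. The CS+T3 birds stood at -0.065, 0.38, 0.11 and 0.10, a mean of 0.13 ± 0.18 (n = 4). All 4 lay above every CS bird, at a difference of 0.72 (SE 0.14), again the single member of 4 without overlap in that comparison, in which 2.66% of all features passed, 2.26% higher and 0.4% lower in CS+T3. There the groups did not overlap for 5.24% of all features, and CS+T3 lay above CS in 3.12%. The means were ordered CS+T3, VC, T3 and CS, and in that order only T3 and CS did not overlap.

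The comparisons of CS and of T3 with VC and with CS+T3 share arrays with the choice of the genes, so their differences are given side by side with no test. CS minus VC was -0.34 for MARCO (SE 0.32), -0.57 for CD74 (SE 0.18), -0.45 for CYBB (SE 0.12) and -0.71 for BTK (SE 0.13). T3 minus VC was 0.76 for MARCO (SE 0.32), 0.28 for CD74 (SE 0.18), 0.21 for CYBB (SE 0.12) and -0.25 for BTK (SE 0.14), so BTK was the member with the opposite sign. The BTK difference between T3 and VC ran from -0.31 to -0.12 over the other settings. Block 27, which holds the BTK spot, had a median log2 ratio of -0.08 ± 0.04 in VC (SD, n = 6) and -0.21 ± 0.09 in T3 (n = 6). It was -0.17 ± 0.10 in CS (n = 6) and -0.20 ± 0.11 in CS+T3 (n = 5). The part of the block in the BTK values was not tested. By limma with Benjamini-Hochberg adjustment, 0 of 9249 features passed between T3 and VC, and 439 had an unadjusted p under 0.05.

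CS+T3 minus CS was 0.66 for MARCO (SE 0.34), 0.25 for CD74 (SE 0.18), 0.37 for CYBB (SE 0.13) and 0.72 for BTK (SE 0.14). CS+T3 minus T3 was -0.44 for MARCO (SE 0.34), -0.60 for CD74 (SE 0.18), -0.29 for CYBB (SE 0.12) and 0.26 for BTK (SE 0.15). That of MARCO was -0.097 without T3 replicate 2 and -0.69 without T3 replicate 4. With both hormones, MARCO, CD74 and CYBB had means between those of the single hormones, while the BTK mean lay above both.

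**Figure D3:**
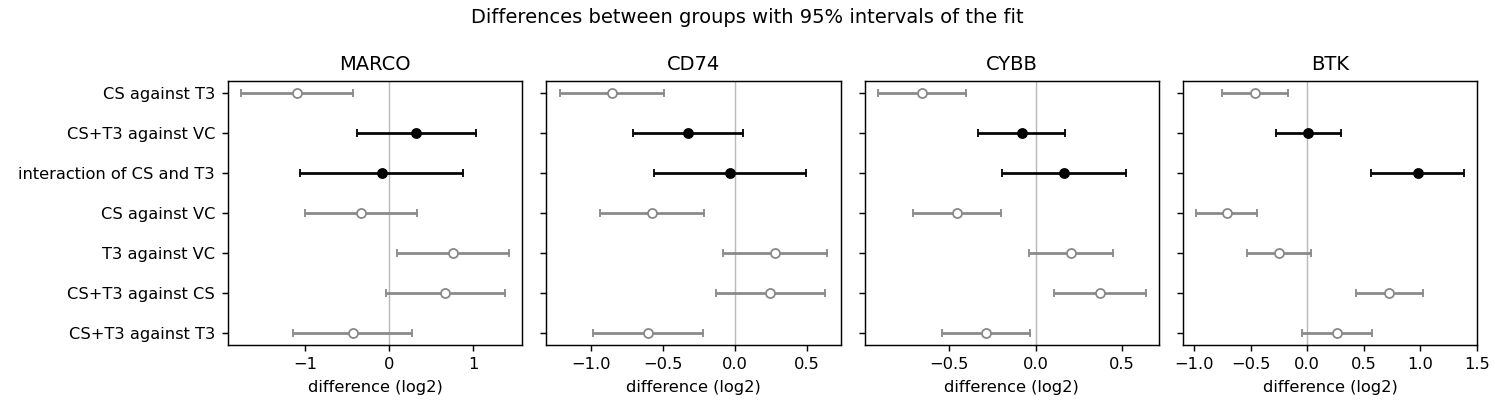
Differences of group means on the log2 scale (horizontal axis) for the 4 genes in 7 comparisons (vertical axis), with 95% intervals of the fit. Black points are the comparisons that were tested, and open grey points those that share arrays with the choice of the genes and were not. The interaction of BTK, at 0.98, is the 1 black point whose interval does not reach 0.

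Whether both hormones together left the genes away from the controls was tested between CS+T3 and VC, a difference of means that uses none of the arrays that chose the genes, although the fit draws its spread from all 23. None of the 4 passed by limma, in a comparison where 0.0541% of all features did, and none had an unadjusted p under 0.05. The differences were 0.32 for MARCO (95% interval -0.39 to 1.03), -0.32 for CD74 (-0.71 to 0.06), -0.08 for CYBB (-0.34 to 0.17) and 0.01 for BTK (-0.27 to 0.30). The adjusted p by limma was 0.9989 for the first 3 genes and 0.9998 for BTK, and 0.754 to 0.994 with only these groups in the fit.

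Exact permutation tests of the same 4 differences, 2-sided, gave p = 0.0873 for MARCO, 0.132 for CD74, 0.385 for CYBB and 0.938 for BTK. Of the 4 CD74 spots so tested, the one in block 19 gave p = 0.0303 by the exact test for a difference of -0.73 (SE 0.29), with 5 of 5 CS+T3 birds below the VC mean, and an adjusted p of 0.9998 by limma over all 11242 spots. The other 3 spots gave exact p of 0.383 to 0.845. Without the 6 arrays that held displaced values the difference became 0.15 for MARCO, -0.15 for CD74, -0.02 for CYBB and 0.11 for BTK, and none passed.

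The interaction asks whether triiodothyronine moved a gene differently in birds that also received corticosterone. It takes the CS and T3 means with the same sign and weight, whereas the choice took their difference, but both use the same arrays, which for BTK are 5 and 4, so the interaction is not fully free of the choice. For BTK it was 0.98 (SE 0.20, 95% interval 0.57 to 1.39), with an unadjusted p of 8.2e-05 and an adjusted p of 0.0587 by limma, just outside the threshold. BTK stood 0.25 lower with triiodothyronine alone than with vehicle and 0.72 higher when triiodothyronine was added to corticosterone.

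None of the 4 genes passed for the interaction, and 0.0865% of all features did. The adjusted p of BTK fell to 0.0185 with array weights, to 0.0257 without CS replicate 5 and to 0.0343 without T3 replicate 6, and over all settings and single arrays left out it ran from 0.0185 to 0.261. The interaction was -0.09 for MARCO (SE 0.46), -0.03 for CD74 (SE 0.25) and 0.17 for CYBB (SE 0.17), with adjusted p by limma of 0.955, 0.972 and 0.781. Its intervals for these 3 genes reached from -1.06 to 0.88, from -0.56 to 0.50 and from -0.19 to 0.53.

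**Figure D4:**
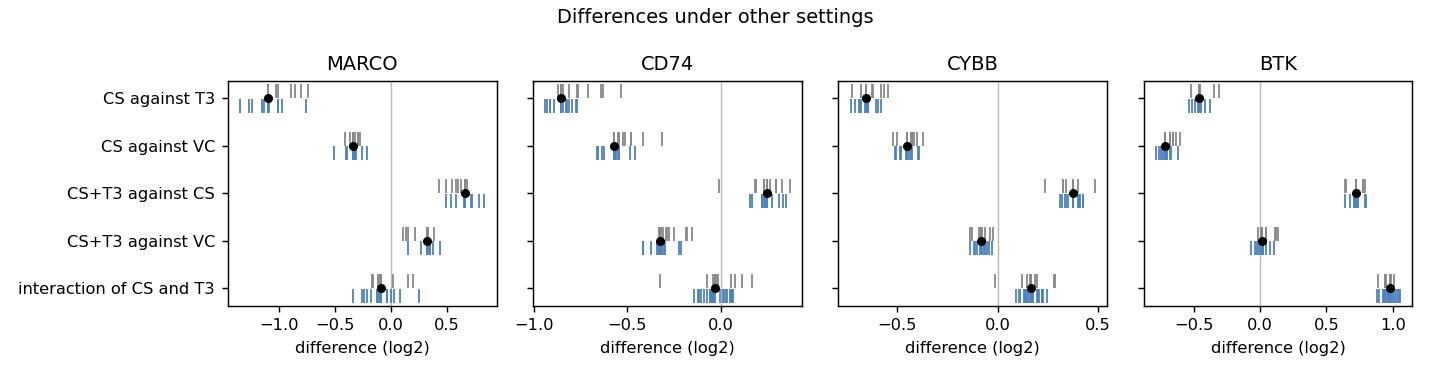
Differences on the log2 scale (horizontal axis) of the 4 genes in 5 comparisons, with black points for the values given in the text, grey ticks for other settings and blue ticks for fits that each leave out 1 array. MARCO between CS and T3 runs from -1.35 to -0.75, and the interaction of BTK stays between 0.88 and 1.06.

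Across birds, CYBB varied with BTK (r = 0.72, 19 arrays) and with CD74 (r = 0.64, 22 arrays), and less with MARCO (r = 0.54, 19 arrays). MARCO and CD74 had r = 0.26 over 19 arrays. With each group's mean taken away these fell to 0.54, 0.25, 0.19 and -0.17. These are descriptions, since the points share arrays and the groups that chose the genes.

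Among named genes, those most like each member over at least 15 shared arrays were found by Pearson correlation. For CYBB they were CRIP2 (0.89), the ribosomal protein gene RPL11 (0.88), the transporter ABCA8 (0.87), HPGDS (0.86) and the vitamin D-binding protein gene GC (0.86). For BTK they were the bile acid transporter subunit SLC51A (0.92), KIF1BP (0.89), TMEM170B (0.89), the glycolytic enzyme ENO1 (0.88) and the proteasome subunit PSMA3 (0.86). These 10 genes hold 1 leukocyte gene of the lists, HPGDS, and 1 hepatocyte gene, GC.

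For CD74 the most alike genes were QKI (0.84), BRD2 (0.80), the asparagine synthetase gene ASNS (0.80), TMCO1 (0.79) and the bile acid receptor NR1H4 (0.78). For MARCO they were LAPTM4A (0.93), LUC7L2 (0.91), TSPAN7 (0.90), ERP44 (0.90) and the replication licensing factor CDT1 (0.88). Each of these 5 has a spot in blocks 1 to 7, near the MARCO spot in block 1. For BTK, read in block 27, ENO1 has a spot in block 26, and TMEM170B and PSMA3 have spots in block 28. SLC51A lies in block 40 and KIF1BP in block 8. For CD74, with a spot in block 35, ASNS lies in block 35, and BRD2 and NR1H4 have spots in block 36. QKI lies in block 43 and TMCO1 in block 15. The part of the place on the array in the likeness of any member was not tested.

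Of 173 symbols in 7 lists of leukocyte genes (macrophages, MHC class II presentation, the phagocyte oxidase, B cells, T and NK cells, granulocytes and all leukocytes), 51 were on the array and 42 were tested, 38 of them beside the 4 members. Between CS and T3, 1 of these 38 rose and 1 fell by limma, while 2.5% of all features rose and 5.1% fell. The median difference of the 38 was 0.01, against 0.05 over all features. The 4 members had been picked from among the leukocyte genes for that difference.

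HPGDS, the haematopoietic prostaglandin D synthase, which mammals make in mast cells and other leukocytes, was the gene that fell. It ran from -1.55 to -0.55 in CS, with a median of -1.14 and a mean of -1.12 ± 0.36 (SD, n = 6), below all VC birds (0.30 ± 0.51, n = 5) and all T3 birds (0.41 ± 0.55, n = 6). It fell by 1.52 against T3 (SE 0.27, adjusted p = 0.00199 by limma) and by 1.42 against VC (SE 0.28, adjusted p = 0.00562). These comparisons share the CS birds. In them 10 hepatocyte genes had median differences of -1.08 and -1.21, and which liver cells made HPGDS was not tested.

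HPGDS rose between CS and CS+T3, by 1.18 (SE 0.30, adjusted p = 0.0377 by limma), to 0.06 ± 0.64 (SD, n = 4). It was 1 of 38 list genes to pass there, where 2.66% of all features passed. That count was 0 without any 1 of CS replicates 1, 2, 3, 4 and 6 or of CS+T3 replicates 1, 3, 4 and 5. It was 2 without CS+T3 replicate 2, CS replicate 5 or T3 replicate 1, 2 or 6, and 3 without T3 replicate 5. The call was also lost as deposited (adjusted p = 0.125 by limma), without the 4 (0.105) or the 6 (0.102) displaced arrays, with quantile normalization (0.131) and with the replicate block (0.0974). Between CS and VC, HPGDS was also the 1 gene of 38 to pass, where 4.08% of all features passed.

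BCL10, an adaptor that carries antigen receptor signals to NF-kB and is made in many cell types, was the gene that rose between CS and T3, by 0.46 (SE 0.12, adjusted p = 0.0234 by limma). It stood at 0.12 ± 0.18 in CS (SD, n = 6), -0.34 ± 0.23 in T3 (n = 6), -0.19 ± 0.24 in VC (n = 6) and -0.18 ± 0.20 in CS+T3 (n = 5). Its sign was thus opposite to that of BTK, which shares its list. Of the 4 genes of that list tested beside BTK, 4 were higher and 0 lower in CS than in T3. Their median difference was 0.26, against 0.05 over all features, and BCL10 was the 1 that passed. The count of 2 genes in this comparison was 1 without CS replicate 3 or T3 replicate 2 and 4 without CS replicate 5. The BCL10 call was lost as deposited (adjusted p = 0.257 by limma), without the 4 (0.0583) or the 6 (0.0804) displaced arrays, with fixed lags (0.056), array weights (0.0827), quantile normalization (0.0969) and only the groups compared (0.0584).

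Among 8 other macrophage genes none passed between CS and T3, and 1 had an unadjusted p under 0.05, with a median difference of -0.04. C1QC, a chain of complement C1q that macrophages make, differed by -0.49 (SE 0.17, adjusted p = 0.0913 by limma) and LY96, the partner of the endotoxin receptor, by -0.09 (SE 0.17). C1QC stood at -0.34 ± 0.31 in CS (SD, n = 5) and 0.14 ± 0.35 in T3 (n = 5), the largest difference of the 8. C1QB, another C1q chain, differed by -0.09 (SE 0.13). Of the 8 genes, 5 were lower and 3 higher in CS, the highest difference being 0.04.

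None of 5 other genes of MHC class II presentation passed, the median difference was 0.04, and the unadjusted p was under 0.05 for 1. RFXAP and RFXANK, subunits of the factor that drives MHC class II genes, differed between CS and T3 in opposite directions, by -0.46 (SE 0.27) and 0.33 (SE 0.12). RAC2, a GTPase of the phagocyte oxidase and the only other gene of that list tested, differed by -0.09 (SE 0.28).

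The remaining leukocyte lists gave no further call between CS and T3. Of 3 genes of T and NK cells, GNLY, a cytolytic granule protein, differed by -0.60 (SE 0.27) and IL2RG, the shared cytokine receptor chain, by 0.24 (SE 0.18). The GNLY spots differed by -0.33 in block 32 and -0.80 in block 46. In T3 its median was 0.08 and its mean 0.36 (n = 5), with a highest value of 1.81. Of 2 granulocyte genes, LYG2, a goose-type lysozyme, differed by 0.43 (SE 0.20) and CSF3R, the receptor of the granulocyte growth factor, by 0.19 (SE 0.17). By limma, 0 of the 38 passed between CS+T3 and VC, between T3 and VC, between CS+T3 and T3 (0.0432% of all features passed there) and for the interaction, where 0, 0, 0 and 4 had an unadjusted p under 0.05.

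**Figure D5:**
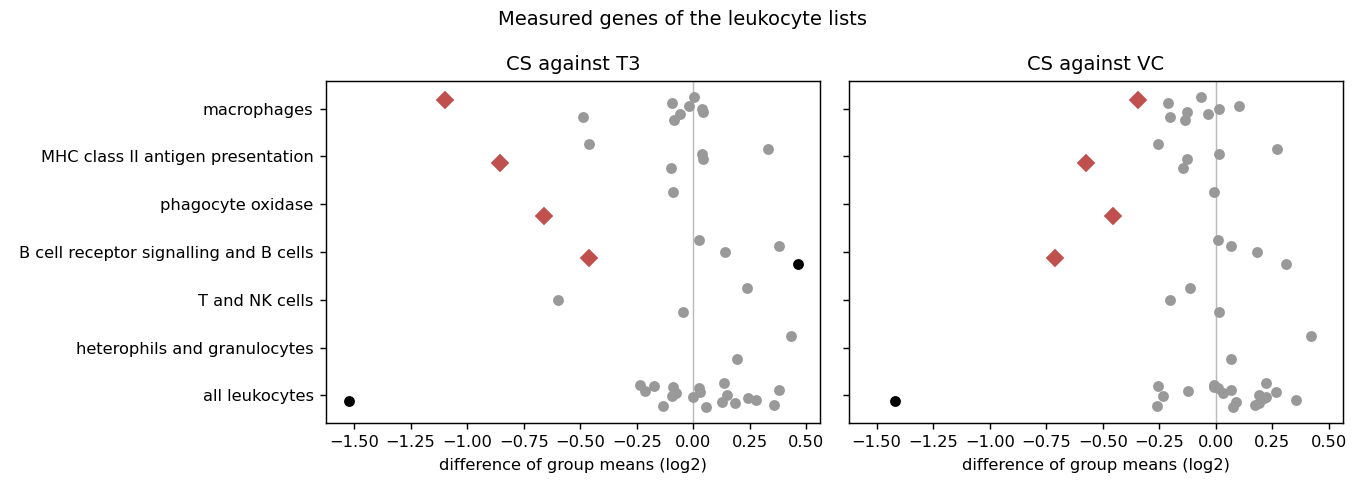
Difference of group means on the log2 scale (horizontal axis) for each tested gene of the 7 leukocyte lists (vertical axis), CS against T3 at left and CS against VC at right. Red diamonds are the 4 members, which were chosen for the difference at left, black points are other genes past the threshold (HPGDS in both panels and BCL10 at left), and grey points are the rest. The grey points lie on both sides of 0.

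Averaged over genes, the 38 leukocyte genes had a mean log2 ratio per bird of -0.04 to 0.03 in VC, -0.05 to 0.05 in CS, -0.05 to 0.14 in T3 and -0.09 to 0.07 in CS+T3, with overlap between all groups. Markers of hepatocytes moved far more. Their mean over 10 genes was -0.04 to 0.14 in VC, -1.35 to -0.41 in CS, -0.60 to 0.23 in T3 and -0.60 to -0.05 in CS+T3, and 7 of the 10 fell and 1 rose between CS and T3, with a median of -1.08.

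Between CS and VC 7 of the 10 hepatocyte genes fell, among them the plasma protein genes FGB (-1.78, SE 0.41), AMBP (-1.64, SE 0.27), TTR (-1.41, SE 0.25) and FGA (-1.32, SE 0.26). The part of the hepatocyte genes' change in the values of the 4 members was not tested. Of 3 erythrocyte genes SLC4A1, the anion exchanger of red cells, rose in CS against T3 (0.34, SE 0.10, 5 CS and 4 T3 birds). Its adjusted p there was 0.0499 by limma, at the edge of the threshold. Against VC, SLC4A1 rose by 0.36 (SE 0.09, adjusted p = 0.0365 by limma). Of 8 endothelial genes TIE1, a receptor kinase of vessels, rose in CS against T3 (0.46, SE 0.12), of 3 bile duct genes TM4SF4 fell (-1.43, SE 0.28), and of 7 stellate cell and matrix genes 0 passed and 1 had an unadjusted p under 0.05.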

How the data were processed

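The authors deposited 1 table of log ratios for 23 arrays of 19200 spots, unit log2 by assumption. Its normalization, background correction, spot filter, log base and numerator are not given in the sources used here, and no slide or scan date is, so no batch was examined. Per the labels, all birds were labelled with the same dye and the pool with the other, with no dye swap. Positive was taken as higher in the bird. THRSP, a gene raised by triiodothyronine in liver, stood 1.65 higher in CS+T3 than in CS. Between T3 and VC it stood 0.86 higher in T3 (SE 0.29) and did not pass, with an adjusted p of 0.959 by limma.

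Arrays were compared with the mean of the others at lags of up to 40 spots, and values were moved back along nondecreasing lags. Realignment, in Python 3.11.15 with numpy 2.4.6, was tested on the 17 unmoved arrays with known shifts. There 97.3% or more of the spots outside the blocks where the lag changed got the right lag. Blocks with a change, among them block 1 with the MARCO spot, were not scored. The test arrays correlated with the others at 0.23 to 0.57. The kept parts of T3 replicate 1 stood at 0.13, 0.34 and 0.15, and the accuracy at the weaker of these was not tested. As deposited, 28.5 to 53.5% of the spots were blank, and 6348 to 10816 values were used on the 6 displaced arrays. Symbols came from the platform annotation (10601 spots), and all 4 members matched the gene table by identifier.

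Where a gene had several spots their mean was taken, and spots without a name stayed single. limma 3.58.1 in R 4.3.3 (lmFit, eBayes) fitted 1 mean per group over all 23 arrays for the 9249 features that had 3 or more values per group, with Benjamini-Hochberg adjustment at 0.05. The median residual SD was 0.22. The number of arrays limits the precision. The labels do not say which birds shared a pen or room.

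Named were the 4 members, for each list and comparison up to 4 genes past the threshold, or the 2 with the largest difference between CS and T3 where none passed, and the 5 genes most like each member. Members, lists and tests were chosen with earlier results of these data known. Alternatives covered the arrays used, the realignment, the spots, weights, normalization, filter and replicate numbers.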

Additional observations from a re-analysis of the deposited data

Results flagged for a closer look

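In 8 of 74 groups of 4 to 6 birds examined, 1 bird lay far from the rest of its group by Dixon's criterion, which chance meets in about 1 in 20 groups. At CD74 spots these were T3 replicate 1 in block 35, row 9, at 1.15, an array whose values were moved back in part, and T3 replicate 5 in block 47, row 9, at 1.05. At the leukocyte genes they were CSF3R in VC replicate 5 at 0.797, GNLY in T3 replicate 5 at 1.81, HPGDS in CS+T3 replicate 5 at 1.00, IL2RG in CS+T3 replicate 4 at -0.175, RAC2 in VC replicate 6 at 1.14 and RFXAP in CS+T3 replicate 2 at 2.20. Values are log2 ratios to the control pool.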

How the results depend on the processing

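Results were recomputed under 13 alternatives, where these could be fitted, and with each array left out. MARCO and BTK have no value with at least 5 values per group, and no interaction has one with only the groups compared. Of the alternatives 2, the centring of spots and the block medians, were chosen after seeing the data. The alternatives were the values as deposited, the fits without the 4 or the 6 displaced arrays, 1 fixed lag for each of the 4, array weights, quantile normalization, the median of a gene's spots, no filter, at least 5 values per group, only the groups compared, the replicate block, spot centring and block medians. In the comparison that chose them the 4 members kept their sign in all of these that could be fitted. They also did in CS against VC, T3 against VC and CS+T3 against T3. These comparisons chose the genes or share arrays with the choice, so the kept signs are a description. Some settings could not move a gene read from a single spot. MARCO stayed at -1.10 between CS and T3 with the spot median, no filter, spot centring and only the groups compared. CD74 between CS+T3 and CS turned from 0.25 to -0.0080 with quantile normalization.

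The interaction of MARCO turned to 0.020 (deposited), 0.15 (weights) and 0.20 (quantile), that of CD74 to 0.11 (deposited), 0.17 (without the 6), 0.056 (fixed lags) and 0.074 (weights), and that of CYBB to -0.014 (deposited). BTK between CS+T3 and VC turned to -0.018 (deposited), and its interaction passed with weights at 0.98. For CD74 spots, block 14, row 1, turned to -0.18 for the interaction (quantile) and to 0.00084 between CS+T3 and VC (block medians), block 19 to -0.43 for the interaction (quantile), and block 47 to 0.14 (deposited) and 0.090 (weights) between CS+T3 and VC. The cause was not tested. No adjusted p of these passed but that of BTK.

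With 1 array left out, the interaction ran from -0.34 to 0.25 for MARCO, -0.14 to 0.067 for CD74 and 0.88 to 1.06 for BTK, BTK between CS+T3 and VC from -0.072 to 0.10, and the block 47 spot there from -0.19 to 0.048. Leukocyte genes past the threshold numbered 1 between CS and T3 (2 in the text) as deposited, without the 4 or the 6 arrays, with weights, quantile, at least 5 values and only the groups compared, and 1 to 4 with 1 array left out. Between CS and VC they numbered 2 with weights and 0 with at least 5 values. Between CS+T3 and CS they numbered 0 as deposited, without the 4 or the 6 and with quantile, 2 with fixed lags, only the groups compared and block medians, 3 with weights, and 0 to 3 with 1 array left out.

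Same-numbered birds of different groups did not vary together (median r = -0.026 over 33 pairs, 9 over 0.1), so the numbers were not taken to pair birds. With the replicate block the interaction of BTK was 0.98 with an adjusted p of 0.252 by limma, and the leukocyte count between CS+T3 and CS was 0. Features past the threshold over the whole array are given with their range over the alternatives. They numbered 703 between CS and T3 (222 with quantile to 1084 with block medians) and 377 between CS and VC (72 as deposited to 802 with weights). Between CS+T3 and CS they numbered 246 (5 as deposited to 674 with block medians). They numbered 5 between CS+T3 and VC (0 as deposited to 31 with weights). For the interaction they numbered 8 (0, among others without the 4 displaced arrays, to 37 with weights). Between CS+T3 and T3 they numbered 4 (0 without the 6 to 11 with block medians). With CS replicate 5 left out, they numbered 1091 between CS and T3 and 675 between CS+T3 and CS. With T3 replicate 5 left out, they numbered 1064 and 326. The array of CS replicate 5 held the highest CS value of each of the 4 members.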
